A study of Mus musculus with 12 samples.

Results

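Aerocytes are the large, thin capillary endothelial cells of the lung that lie against the gas-exchange surface, as opposed to the general capillary cells, which act as their progenitors. They respond to VEGF-A from neighbouring alveolar type 1 epithelial cells and are recognised by a small set of transcripts that other lung endothelial cells carry at lower levels. Expression of 8 such markers, and of Clic5, was followed here in endothelial cells sorted from the lungs of mouse pups. The 8 were Car4, Ednrb, Fibin, Tbx2, Emp2, Kitl, Prx and Chst1, taken as known markers with Apln and Nrp1 left aside. That choice was made with earlier results of these data known. Clic5 was added because it was low in L12-ECKO cells, and is counted with them as 9 markers below. All 9 were found by their symbols in each of the 12 tables, out of 24360 genes used, and all 9 were among the 11780 genes tested, with at least 1 CPM in 12 of 12 libraries.

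Every mouse was C57BL/6J and sampled at postnatal day 5, and the cells of every group were obtained by FACS. L12YT-ECKO mice carried VE-cadherin-CreERT2 with floxed alleles of Lats1, Lats2, Yap (Yap1) and TAZ (Wwtr1). L12-ECKO mice carried the same driver with floxed Lats1 and Lats2 only, and WT mice were wild type. Each group had 4 libraries. Lats1 and Lats2 are the kinases of the Hippo pathway that hold back the transcriptional co-activators YAP and TAZ, so the groups ask what loss of the kinases does to endothelial cells and which of its effects need YAP and TAZ. The driver is restricted to endothelial cells and depends on an inducer, and the sources used here do not say when it was given, whether WT pups carried Cre or received it, which surface markers were sorted on, or whether each library came from its own animal. P-values therefore measure the spread between these libraries.

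Values are the authors' normalized log2 values, read near the 3-prime end of transcripts, and a difference of 1 is a doubling. Depth is unknown, and 9850 (L12-ECKO replicate 3) to 13078 (L12-ECKO replicate 4) genes lay above 0 in a library. The lowest value above 0 was 4.981 in L12-ECKO replicate 3 and 0.067 to 3.162 in the other libraries. Of the targeted genes, Wwtr1 lay at 8.16 to 9.37 in L12YT-ECKO, 10.11 to 11.57 in L12-ECKO and 11.56 to 12.01 in WT, and fell by 2.37 in L12YT-ECKO versus L12-ECKO (SE 0.351, limma adjusted p = 0.00504). Yap1 lay at 6.69 to 8.20 in L12YT-ECKO, 9.35 to 10.45 in L12-ECKO and 9.46 to 10.02 in WT, and fell by 2.25 in L12YT-ECKO versus L12-ECKO (SE 0.407, limma adjusted p = 0.0387), with the call kept in 3 of 12 fits without 1 library (L12YT-ECKO replicate 4, L12-ECKO replicate 4 or WT replicate 4). Lats1 lay at 0 to 7.90 in L12YT-ECKO, 0 to 7.40 in L12-ECKO and 5.32 to 7.45 in WT, and Lats2 at 8.63 to 9.57 in L12YT-ECKO, 9.71 to 10.33 in L12-ECKO and 8.42 to 9.34 in WT. Lats2 differed by 0.9985 in L12-ECKO versus WT without passing (limma adjusted p = 0.262). Where the reads of the targeted genes lie against the deleted parts was not examined, so their values do not measure the deletion. The YAP and TAZ target Ctgf rose by 6.18 in L12-ECKO versus WT (SE 0.617, limma adjusted p = 0.000381). The endothelial gene Pecam1 lay at 14.79 to 15.20 in L12YT-ECKO, 14.50 to 15.05 in L12-ECKO and 14.66 to 15.13 in WT. In 5 libraries (L12YT-ECKO replicates 3 and 4 and L12-ECKO replicates 2, 3 and 4) a block of 32 rows, none of them a marker, stands displaced by 1 row, and liver transcripts are high there. L12-ECKO replicate 1 stands apart by its immune transcripts, with S100a8 at 15.20 against 0 to 6.10 in the other L12-ECKO libraries. No WT library has displaced rows, so within the 7 libraries without them L12-ECKO versus WT rests on L12-ECKO replicate 1 alone, the library with the high immune transcripts. For the markers, values within the 7 libraries are given below.

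8 of the 9 markers overlap no other annotated gene. On mm10 (GENCODE M21) Clic5 spans chromosome 17, 44188584 to 44280172 on the plus strand, Prx chromosome 7, 27499324 to 27520214 on the plus strand and Ednrb chromosome 14, 103814625 to 103844402 on the minus strand. Prx overlaps the antisense gene Gm15541. No exon of that gene lies near the 3-prime end of Prx, and whether the counting used strand is not given. Car4 lies on chromosome 11, 84957786 to 84966044 (plus), and Tbx2 on the same chromosome, 85832551 to 85841948 (plus). Fibin lies on chromosome 2, 110360917 to 110363183 (minus), and Chst1 on the same chromosome, 92599707 to 92615250 (plus). Emp2 lies on chromosome 16, 10281749 to 10313968 (minus), and Kitl on chromosome 10, 100015630 to 100100416 (plus). All 9 are protein coding.

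YAP and TAZ act on DNA through TEAD factors, whose core motif is CATTCC, so the 250 bases before the start of each marker were searched for it on both strands (CATTCC or GGAATG). RefSeq promoters (GRCm38.p6) were matched for 8 of the 9 markers. 3 of the 8 (Prx, Fibin and Chst1) hold the motif, against 12.6% of 32851 promoters in the same table. The windows of Clic5 (chr17:44188322-44188571, plus strand), Prx (chr7:27499074-27499323, plus strand) and Ednrb (chr14:103843702-103843951, minus strand) are shown because these 3 markers, with Tbx2, separated L12YT-ECKO from L12-ECKO libraries below. They run 5′ to 3′ up to the start site, with the motif in capitals. RefSeq start sites differ from the GENCODE ends given above for Ednrb and Clic5.
Clic5: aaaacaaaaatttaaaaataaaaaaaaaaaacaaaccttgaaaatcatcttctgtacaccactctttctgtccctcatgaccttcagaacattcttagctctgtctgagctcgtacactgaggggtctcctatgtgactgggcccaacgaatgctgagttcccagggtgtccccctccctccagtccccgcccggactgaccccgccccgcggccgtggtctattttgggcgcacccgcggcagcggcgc
Prx: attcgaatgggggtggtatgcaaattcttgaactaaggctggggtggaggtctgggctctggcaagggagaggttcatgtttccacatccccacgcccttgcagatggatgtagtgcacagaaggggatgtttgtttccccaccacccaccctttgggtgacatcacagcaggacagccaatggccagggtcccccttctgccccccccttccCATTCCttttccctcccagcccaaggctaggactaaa
Ednrb: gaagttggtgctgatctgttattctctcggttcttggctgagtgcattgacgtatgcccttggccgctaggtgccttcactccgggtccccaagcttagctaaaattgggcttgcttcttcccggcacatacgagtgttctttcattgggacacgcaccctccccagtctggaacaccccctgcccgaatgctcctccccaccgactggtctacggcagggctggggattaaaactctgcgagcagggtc
The motif in Prx begins 37 bases before the start. The windows of Clic5 and Ednrb hold no match. A match is a run of letters and not a bound site.

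In Clic5, Prx, Tbx2, Ednrb and Kitl the mean was lowest in L12-ECKO, while L12YT-ECKO and WT overlapped. Prx averaged 12.02 ± 0.51 in L12YT-ECKO, 10.64 ± 0.62 in L12-ECKO and 11.82 ± 0.54 in WT (SD, n = 4 each). L12-ECKO had the lowest mean in 7 of the 8 markers other than Clic5 and the highest in Chst1. The mean of L12YT-ECKO was the highest in Car4, Ednrb, Tbx2, Emp2 and Prx, and that of WT in Fibin, Kitl and Clic5. The next counts leave out Clic5, which was chosen for its low L12-ECKO values. The other 8 were also chosen with earlier results of these data known, so the counts describe them and give no test. Of these 8 markers, 7 lay lower in L12-ECKO than in WT, against 51.0% of all genes tested. In L12YT-ECKO versus L12-ECKO 7 of the 8 lay higher, against 55.0%. None of the 8 passed the test over all genes in either comparison. In bulk samples fewer aerocytes and less of these transcripts per aerocyte cannot be told apart, and neither was tested. The part of other cells in these values was not tested either.

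**Figure D1:**
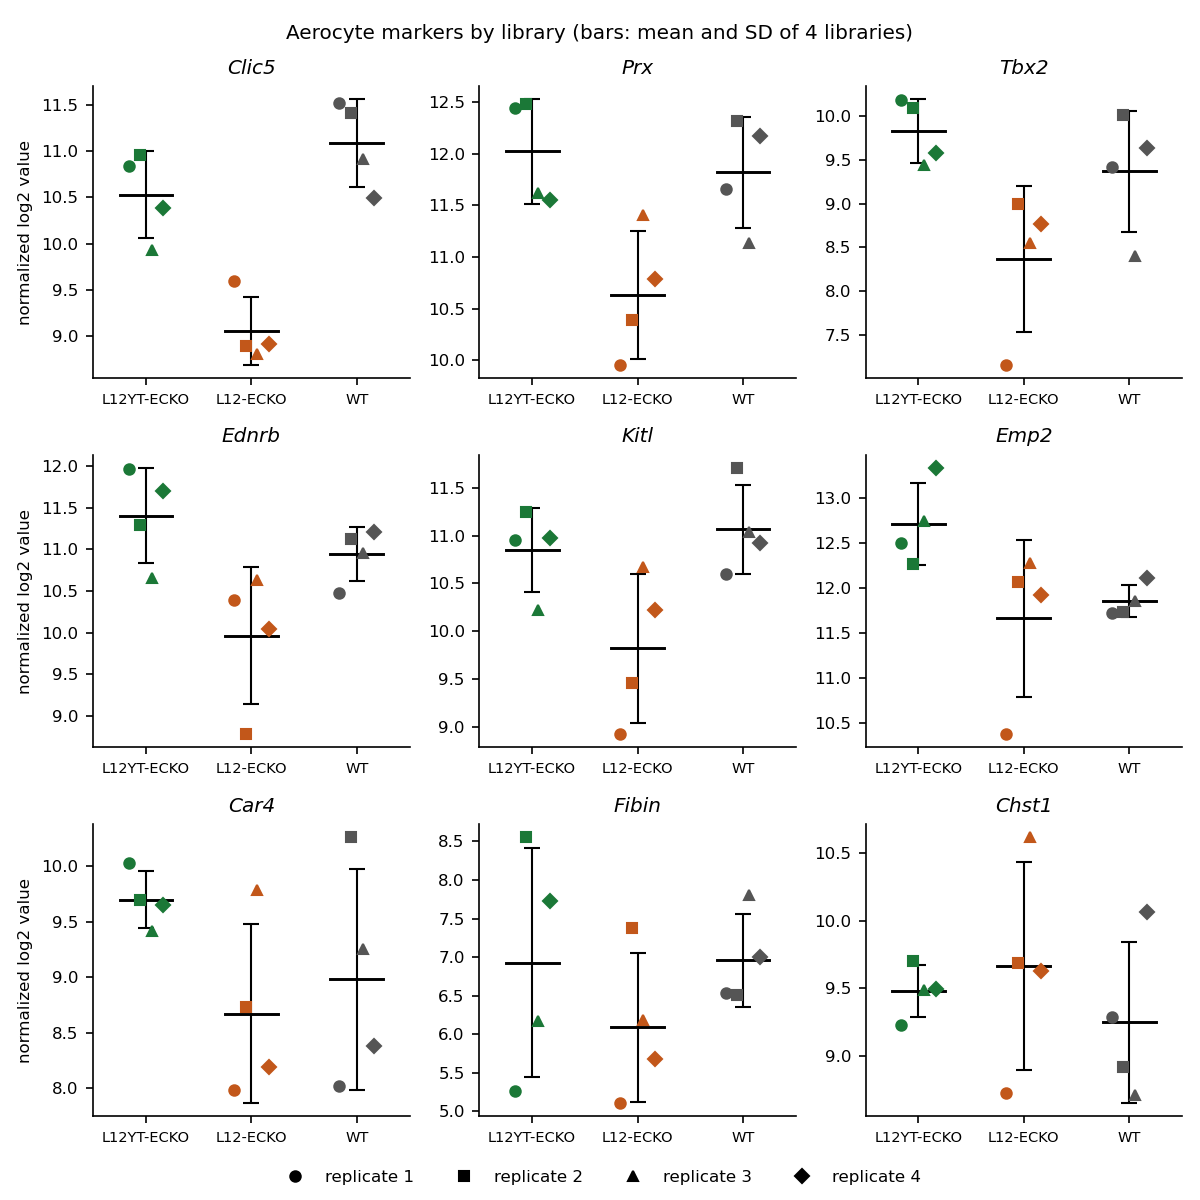
Normalized log2 value (vertical axis) of each of the 9 markers in every library, by group; points are libraries, with the shape giving the replicate number, and bars are the mean and SD of 4 libraries. In Clic5 all L12-ECKO libraries (8.81 to 9.60) lie below all others, and in Chst1 the 3 groups overlap.

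Clic5 encodes a member of the chloride intracellular channel family that associates with the cortical actin cytoskeleton. It stood at 10.84, 10.96, 9.94 and 10.38 in L12YT-ECKO replicates 1 to 4. In L12-ECKO it stood at 9.60, 8.90, 8.81 and 8.92. In WT it stood at 11.52, 11.41, 10.92 and 10.50. The 4 L12-ECKO libraries lay below the 8 others, and L12YT-ECKO and WT overlapped. The difference between L12-ECKO and WT was -2.03 (SE 0.336), a level 4.08-fold lower. This difference chose the gene and is given as a description. L12YT-ECKO differed from L12-ECKO by 1.47 (SE 0.336), and from WT by -0.56. These 2 differences draw on libraries used in that choice, so no test is given for them either. The value in L12-ECKO versus WT was -1.48 when the fit held a term for displaced rows, and -1.49 within the 7 libraries without displaced rows, where L12-ECKO has 1 library (replicate 1), assumed to vary like the other groups. L12YT-ECKO differed from L12-ECKO by 1.30 in those 7 libraries and by 1.28 in the other 5.

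Prx encodes periaxin, a PDZ-domain scaffold protein best known from Schwann cells. Its values were 12.44, 12.48, 11.62 and 11.55 in L12YT-ECKO, 9.95, 10.39, 11.41 and 10.79 in L12-ECKO, and 11.65, 12.31, 11.14 and 12.18 in WT. All L12YT-ECKO libraries lay above all L12-ECKO libraries, and L12-ECKO replicate 3 reached into the WT range. Prx differed by -1.18 in L12-ECKO versus WT (SE 0.344, limma adjusted p = 0.149) and by 1.39 in L12YT-ECKO versus L12-ECKO (SE 0.344, limma adjusted p = 0.221). Neither difference passed. The first was -1.87 within the 7 libraries without displaced rows and -0.96 without L12-ECKO replicate 1. The second was 2.51 within the 7 libraries without displaced rows and 0.72 within the 5 with them. Emp2 encodes a small tetraspan membrane protein of the PMP22 family. It stood at 12.50, 12.27, 12.74 and 13.33 in L12YT-ECKO, 10.37, 12.07, 12.28 and 11.92 in L12-ECKO, and 11.72, 11.73, 11.85 and 12.11 in WT. L12YT-ECKO lay above WT in every library, and 3 of the 4 L12-ECKO libraries lay within or just above the WT range. Emp2 differed by 0.86 in L12YT-ECKO versus WT (SE 0.344, limma adjusted p = 0.755) and by 0.30 there when the fit held a term for displaced rows. L12-ECKO versus WT gave -0.19 over all libraries, -1.48 within the 7 libraries without displaced rows and 0.24 without L12-ECKO replicate 1. L12YT-ECKO differed from L12-ECKO by 1.05 (limma adjusted p = 0.577), by 2.01 within the 7 libraries and by 0.95 within the 5.

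Ednrb and Kitl carry signals. Ednrb encodes the endothelin B receptor, which in the lung also clears circulating endothelin. It stood at 11.97, 11.29, 10.66 and 11.70 in L12YT-ECKO, 10.39, 8.78, 10.63 and 10.04 in L12-ECKO, and 10.48, 11.12, 10.96 and 11.21 in WT. The lowest L12YT-ECKO library lay just above the highest L12-ECKO library, and the L12-ECKO and WT ranges overlapped. Ednrb differed by 1.44 in L12YT-ECKO versus L12-ECKO (SE 0.378, limma adjusted p = 0.294) and by -0.98 in L12-ECKO versus WT (SE 0.378, limma adjusted p = 0.293), without passing. The first of these was 1.24 within the 7 libraries and 1.36 within the 5. The second was -0.55 within the 7 libraries and -1.12 without L12-ECKO replicate 1. Kitl encodes stem cell factor, the ligand of the receptor KIT. It stood at 10.95, 11.24, 10.23 and 10.98 in L12YT-ECKO, 8.93, 9.46, 10.67 and 10.22 in L12-ECKO, and 10.60, 11.70, 11.04 and 10.93 in WT. 3 of the 4 L12-ECKO libraries lay below all 4 WT libraries and below all 4 L12YT-ECKO libraries, the nearest pair by 10.224 against 10.227 in L12YT-ECKO. Kitl differed by -1.24 in L12-ECKO versus WT (SE 0.373, limma adjusted p = 0.163), the most negative value among the markers other than Clic5. That difference was -2.14 within the 7 libraries and -0.95 without L12-ECKO replicate 1. In L12YT-ECKO versus L12-ECKO it differed by 1.03 (SE 0.373, limma adjusted p = 0.655), by 2.17 within the 7 libraries without displaced rows and by 0.48 within the 5 with them.

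Tbx2 encodes a T-box transcription factor that mainly represses its targets. It stood at 10.18, 10.09, 9.45 and 9.58 in L12YT-ECKO, 7.16, 9.0, 8.55 and 8.77 in L12-ECKO, and 9.42, 10.01, 8.40 and 9.64 in WT. L12YT-ECKO lay above L12-ECKO in every library, and WT replicate 3 lay among the L12-ECKO libraries. Tbx2 differed by 1.46 in L12YT-ECKO versus L12-ECKO (SE 0.450, limma adjusted p = 0.530) and by -0.998 in L12-ECKO versus WT (SE 0.450, limma adjusted p = 0.385). Without L12-ECKO replicate 1 these became 1.05 and -0.59. Within the 7 libraries without displaced rows they were 2.98 and -2.21, and within the 5 with them L12YT-ECKO and L12-ECKO differed by 0.74.

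In Car4, Chst1 and Fibin the groups overlapped in all 3 comparisons, as they did in Kitl. Car4 encodes carbonic anhydrase IV, an enzyme held on the luminal surface of lung capillaries, where it converts bicarbonate and CO2. It stood at 10.03, 9.69, 9.41 and 9.65 in L12YT-ECKO, 7.99, 8.73, 9.79 and 8.19 in L12-ECKO, and 8.03, 10.26, 9.26 and 8.38 in WT. L12-ECKO and WT covered nearly the same range, with an SD of 0.26 in L12YT-ECKO, 0.81 in L12-ECKO and 0.997 in WT. Car4 differed by -0.31 in L12-ECKO versus WT (95% interval -1.32 to 0.71, limma adjusted p = 0.834). That interval holds differences of either sign, and the value was -0.99 within the 7 libraries and -0.08 without L12-ECKO replicate 1. L12YT-ECKO differed from L12-ECKO by 1.02 (limma adjusted p = 0.815), by 1.88 within the 7 libraries and by 0.63 within the 5. Chst1 encodes a sulfotransferase that modifies keratan sulfate, and was the one marker with a higher mean in L12-ECKO than in WT, by 0.42 (SE 0.41, limma adjusted p = 0.708). That difference was -0.52 within the 7 libraries and 0.73 without L12-ECKO replicate 1. Fibin encodes a small secreted protein named for its part in zebrafish fin bud initiation. Its values ran from 5.26 to 8.55 in L12YT-ECKO, from 5.10 to 7.38 in L12-ECKO and from 6.51 to 7.80 in WT. Its difference in L12-ECKO versus WT was -0.87, with a 95% interval of -2.75 to 1.01. It was -1.85 within the 7 libraries and -0.54 without L12-ECKO replicate 1.

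**Figure D2:**
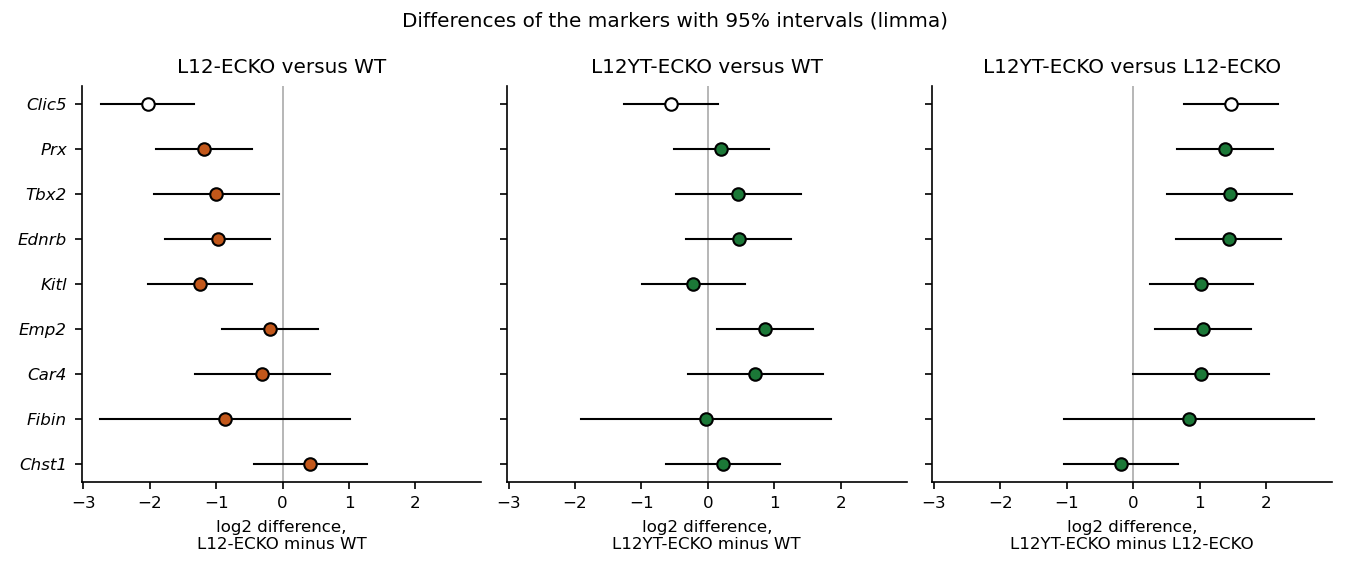
Log2 difference between group means (horizontal axis) of each marker in the 3 comparisons; points are limma estimates, lines their 95% intervals, and the open points mark Clic5, which was chosen on these libraries. The lines of Clic5 take no account of that choice and give no test. In the left panel 7 of the 8 points other than Clic5 lie below 0, against 51.0% of all genes tested. In the right panel 7 of these 8 lie above 0, against 55.0%. The 8 were chosen with earlier results of these data known, so these shares give no test.

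Read over the 8 markers other than Clic5, the L12-ECKO versus WT comparison had 7 differences below 0 with a median of -0.93, against 51.0% of all genes tested below 0 and a median of -0.02. Limma called 0 of the 8, against a background of 0.475% of genes called in either direction. 4 of the 8 (Prx, Kitl, Ednrb and Tbx2) had an unadjusted p under 0.05, as did 12.1% of all genes. The list was chosen with earlier results of these data known. It leaves out Apln, which rose by 2.61 in L12-ECKO versus WT, and Nrp1, which differed by -0.18. These counts, and those of the comparisons below, therefore describe the list and give no test of it. 0 of the 8 had groups that did not overlap in the lower direction, against 3.34% of all genes, whereas Clic5 did by the choice that added it. Without L12-ECKO replicate 1 the count below 0 was 6 and the median -0.57. Within the 7 libraries without displaced rows, where that library is the 1 L12-ECKO library, 8 of the 8 lay below 0 with a median of -1.67, and limma called 0 of them. That library held the lowest L12-ECKO value of 7 of the 9 markers, and replicate 3 held the highest of 6.

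In L12YT-ECKO versus L12-ECKO 7 of these 8 differences lay above 0, with a median of 1.04, against 55.0% and a median of 0.09 over all genes. Limma called 0 of the 8, against 0.0679% of all genes called, and 6 of the 8 had an unadjusted p under 0.05, as did 6.10% of all genes. 3 of the 8 (Ednrb, Prx and Tbx2) had no overlap in the higher direction, against 2.74% of all genes. Without L12-ECKO replicate 1 the median was 0.76 and 4 of the 8 had an unadjusted p under 0.05. Within the 7 libraries without displaced rows the median was 1.94, and within the 5 with them it was 0.67. Both comparisons use the same L12-ECKO libraries, so the lower values in the first and the higher values in the second are not separate observations.

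L12YT-ECKO versus WT had 6 of the 8 differences above 0, with a median of 0.34, against 54.3% and a median of 0.08 over all genes. Limma called 0 of the 8, against 0.00849% of all genes called, and Emp2 was the 1 marker with an unadjusted p under 0.05, as against 6.20% of all genes. Emp2 was also the 1 marker whose groups did not overlap in the higher direction, as against 2.53% of all genes.

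Genes that signal to or from these cells were followed in the same libraries. Of the list of ligands and receptors 7 of 9 were tested, and in L12-ECKO versus WT 1 rose and 1 fell. Edn1, which encodes the endothelin 1 peptide that binds Ednrb, stood at 11.21, 10.46, 10.69 and 11.16 in L12YT-ECKO, 13.02, 12.04, 11.57 and 12.73 in L12-ECKO, and 10.72, 10.996, 10.95 and 10.17 in WT. L12-ECKO lay above both other groups in every library. Edn1 rose by 1.63 in L12-ECKO versus WT (SE 0.322, limma adjusted p = 0.0280), and kept its call in 6 of 12 fits without 1 library. It lost the call without L12-ECKO replicate 1, 2 or 4 or WT replicate 1, 2 or 4, and its adjusted p over all alternatives ran from 0.0139 to 0.211 in limma. In L12YT-ECKO versus L12-ECKO it differed by -1.46 (SE 0.322, limma adjusted p = 0.129). Ece1, whose product activates endothelins, differed by 0.74 in L12-ECKO versus WT without passing (SE 0.21, limma adjusted p = 0.147).

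Vegfa, which alveolar type 1 cells are known to supply to aerocytes, stood at 12.47, 12.06, 12.57 and 12.78 in L12YT-ECKO, 11.60, 11.11, 12.04 and 12.06 in L12-ECKO, and 12.64, 13.62, 12.61 and 12.96 in WT. Every L12-ECKO library lay below every WT library. Vegfa fell by 1.25 in L12-ECKO versus WT (SE 0.277, limma adjusted p = 0.0475), a call that held in 1 of 12 fits without 1 library, that without WT replicate 3. Its adjusted p over all alternatives ran from 0.0350 to 0.290 in limma. No receptor gene was called. Kit, the receptor for Kitl, differed by -0.16 in L12-ECKO versus WT (SE 0.277, limma adjusted p = 0.851), and the VEGF receptor gene Kdr by 0.15 (SE 0.222, limma adjusted p = 0.820). Aplnr, the apelin receptor gene of general capillary cells, differed by -0.59 (SE 0.295, limma adjusted p = 0.433).

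**Figure D3:**
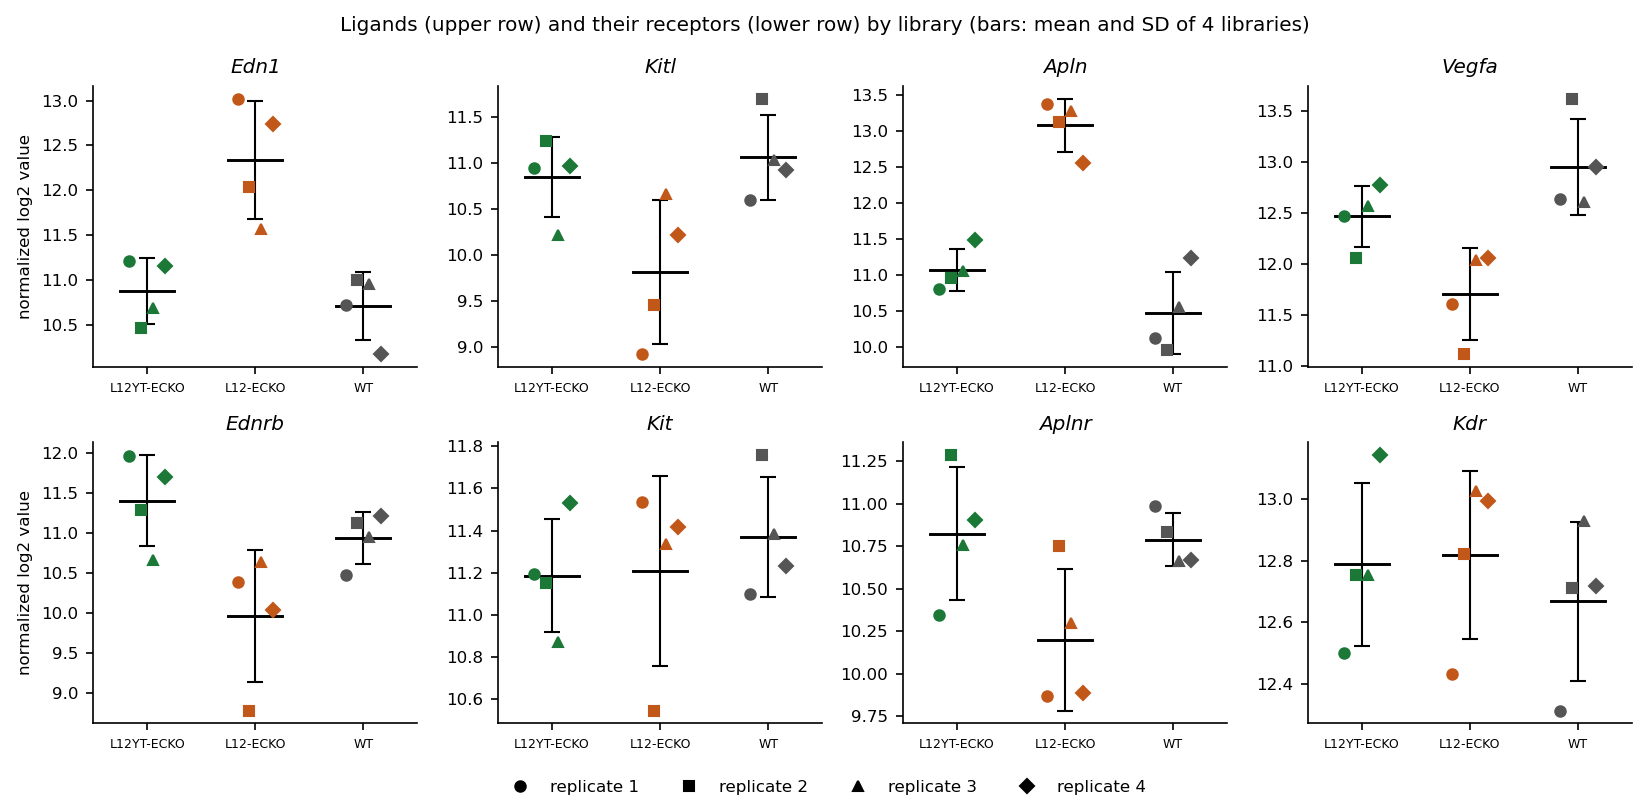
Normalized log2 value (vertical axis) of 4 ligand genes (upper row) and a receptor gene of each (lower row) in every library, by group; points are libraries and bars the mean and SD of 4 libraries. Edn1 and Apln are higher in the 4 L12-ECKO libraries than in the other 8, while Ednrb is lowest on average in L12-ECKO.

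Not every aerocyte gene followed the low L12-ECKO values. Apln, the apelin gene left out of the marker set, stood at 10.80, 10.96, 11.05 and 11.48 in L12YT-ECKO, 13.37, 13.12, 13.27 and 12.55 in L12-ECKO, and 10.12, 9.96, 10.55 and 11.23 in WT. It rose by 2.61 in L12-ECKO versus WT (SE 0.297, limma adjusted p = 0.000381), and kept its call in 12 of 12 fits without 1 library. That direction was opposite to that of 7 of the 8 markers other than Clic5. Among the 8 further aerocyte genes listed beside them (Apln, Nrp1, Kdr, Cd34, Igfbp7, Sirpa, Spock2 and Rprml), 4 lay higher and 4 lower in L12-ECKO than in WT, with a median of -0.02, and Apln was the 1 called. Cd34 differed by -0.45 (SE 0.176, limma adjusted p = 0.306). Rprml was listed at 0 in 3 of 4 L12-ECKO and 2 of 4 WT libraries and lay between 4.04 and 5.75 in L12YT-ECKO.

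Paralogs of the markers were compared next. Of 14 tested, 10 lay lower in L12-ECKO than in WT and none was called by limma in any comparison. The paralogs with the highest means, Emp1 and Clic1, differed by -0.05 and -0.03 in L12-ECKO versus WT, with adjusted p of 0.940 and 0.968 by limma. Pmp22, a myelin tetraspan gene of the Emp2 family that was singled out after its values were seen, stood at 13.89, 13.06, 12.36 and 13.61 in L12YT-ECKO, 12.14, 12.23, 12.40 and 11.88 in L12-ECKO, and 13.68, 13.63, 12.92 and 13.38 in WT. All L12-ECKO libraries lay below all WT libraries. Its difference of -1.24 did not pass (SE 0.284, limma adjusted p = 0.0588). It passed in 2 of 12 fits without 1 library (L12YT-ECKO replicate 3 or WT replicate 3) and in 2 of 8 other alternatives, with a limma adjusted p of 0.0328 to 0.465 over all of them.

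General capillary markers were low in the same libraries. Of 8 tested, 8 lay below WT in L12-ECKO, with a median of -0.94. 3 of them fell: Sema3c by 1.94 (SE 0.358, limma adjusted p = 0.0197), Hmcn1 by 1.33 (SE 0.289, limma adjusted p = 0.0475) and Cd93 by 0.75 (SE 0.163, limma adjusted p = 0.0475). Without 1 library the call held in 10 of 12 fits for Sema3c, which lost it without WT replicate 1 or 2, and in 0 of 12 for Hmcn1 and Cd93. In L12YT-ECKO versus L12-ECKO 4 of these 8 lay higher, with a median of 0.36 and none called, where the aerocyte markers had 7 of 8 higher and a median of 1.04. Whether the lists differ was not tested. Of 16 pan-endothelial markers 12 lay lower in L12-ECKO than in WT, with a median of -0.16 and none called. Cldn5, the tight junction gene among them, rose by 1.14 in L12YT-ECKO versus L12-ECKO (SE 0.208, limma adjusted p = 0.0390), a call that held in 2 of 12 fits without 1 library, those without L12-ECKO replicate 2 or WT replicate 4.

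Alveolar type 1 epithelial cells are known to express Clic5 and Emp2 too, and the values of their markers are therefore set beside those of the aerocyte markers. Of 11 tested, 9 lay lower in L12-ECKO than in WT, with a median of -0.93, and 8 lay higher in L12YT-ECKO than in L12-ECKO, with a median of 0.63. None was called by limma. The log2 of their summed level ran from 12.31 to 13.66 in L12YT-ECKO, from 11.43 to 13.19 in L12-ECKO and from 12.38 to 13.44 in WT. The list genes with the highest means were Akap5, which differed by 0.41 in L12-ECKO versus WT (limma adjusted p = 0.664), and Hopx, which differed by -1.63 (limma adjusted p = 0.349).

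Ager, the defining gene of these epithelial cells, was looked at after its values were seen. It stood at 11.38, 11.26, 10.12 and 9.86 in L12YT-ECKO, 10.38, 10.13, 0 and 9.09 in L12-ECKO, and 11.67, 11.65, 5.88 and 11.58 in WT. WT replicate 3 was far lower than the other WT libraries. L12-ECKO replicate 3, the library with the fewest genes above 0, was listed at 0. Of the 12 type 1 markers listed, 5 were at 0 in L12-ECKO replicate 3 and 3 in WT replicate 3. Their mean log2 value was 4.65 in L12-ECKO replicate 3 and 5.74 in WT replicate 3, each the lowest of its group. Other type 1 markers, of which Cldn18 was added after its values were seen, were present in both libraries. In L12-ECKO replicate 3 Akap5 was at 11.99, Hopx at 9.73 and Cldn18 at 9.37, and in WT replicate 3 they were at 11.43, 9.61 and 10.28. In WT replicate 3 Clic5 at 10.92, Emp2 at 11.85, Car4 at 9.26, Ednrb at 10.96 and Kitl at 11.04 lay within the range of the other WT libraries. Tbx2 at 8.40, Prx at 11.14 and Chst1 at 8.71 were the lowest of WT there, and Fibin at 7.80 was the highest. In L12-ECKO replicate 3, Clic5 at 8.81 was the lowest of its group, while 6 of the 9 markers (Car4, Ednrb, Emp2, Kitl, Prx and Chst1) were at their highest.

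**Figure D4:**
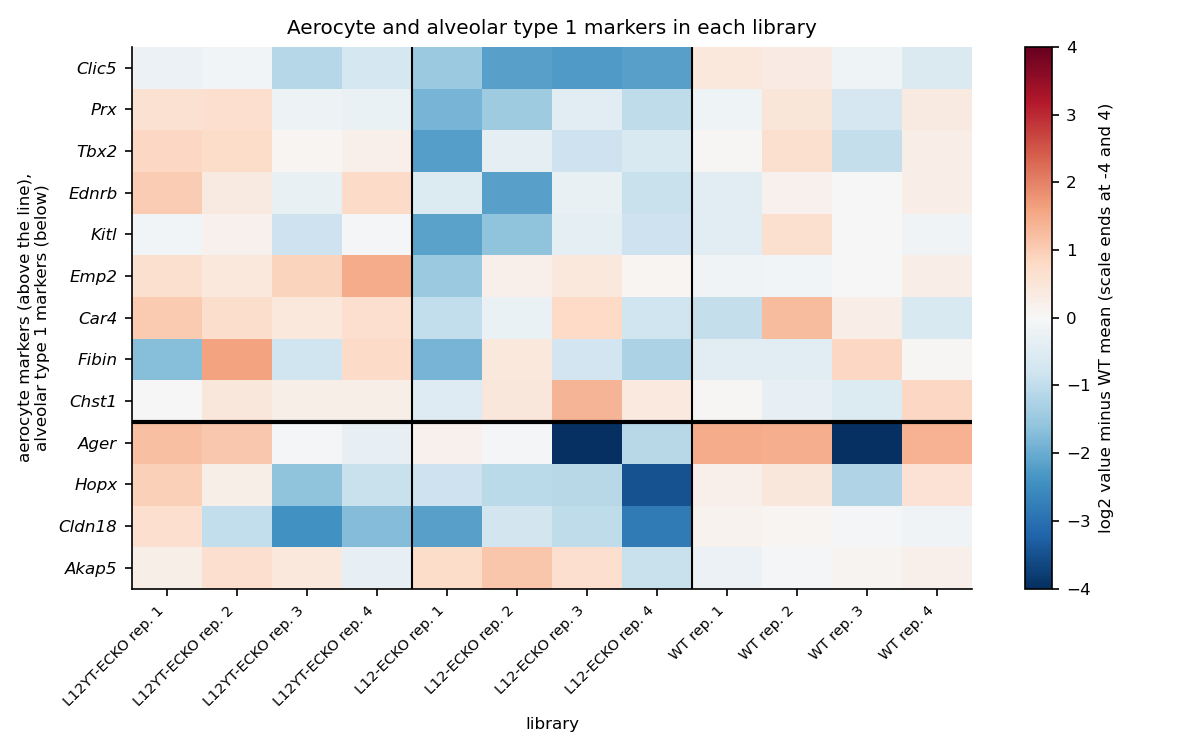
Log2 value minus the WT mean (colour, red higher and blue lower) of the 9 aerocyte markers above the line and of 4 alveolar type 1 markers below it, in each of the 12 libraries. Clic5 is below the WT mean in all 4 L12-ECKO libraries and, less far, in all 4 L12YT-ECKO libraries. Ager lies past the end of the scale in L12-ECKO replicate 3 (0) and WT replicate 3 (5.88). Cldn18 was added after its values were seen.

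Markers of the remaining cell types were not called by limma in any comparison. In L12-ECKO versus WT the median was -0.32 over 11 alveolar type 2 and epithelial genes, -0.82 over 11 mesenchymal, pericyte and muscle genes, and -0.88 over 6 red cell and platelet genes. It was 2.37 over 7 immune genes, whose log2 summed level was 16.44 in L12-ECKO replicate 1 and 7.49 to 8.55 in the other L12-ECKO libraries. It was 3.69 over 7 liver genes, whose log2 summed level ran from 9.92 to 12.05 in the L12-ECKO libraries with displaced rows, and was 9.11 in L12-ECKO replicate 1 and 8.06 to 9.87 in WT. The highest-mean genes of these lists differed in L12-ECKO versus WT by -0.32 (Sftpc) and -0.50 (Sftpa1), 0.64 (Eln) and -0.21 (Col1a2), -1.17 (Hba-a1) and -0.19 (Hbb-bt), -1.53 (S100a8) and -0.85 (S100a9), and 1.28 (Trf) and 2.73 (Alb). The part of these cells in the marker values, that of alveolar type 1 cells included, was not tested.

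Of 8 YAP and TAZ targets 5 rose in L12-ECKO versus WT (Ctgf, Cyr61, Crim1, Igfbp3 and Tgfb2), with a list median of 1.98, and 3 fell in L12YT-ECKO versus L12-ECKO (Ctgf, Cyr61 and Crim1), with a list median of -1.79. Without 1 library the calls in L12-ECKO versus WT held in 12 of 12 fits for Ctgf, Cyr61 and Crim1, in 8 of 12 for Igfbp3 and in 6 of 12 for Tgfb2. Those in L12YT-ECKO versus L12-ECKO held in 12 of 12 fits for Cyr61, in 8 of 12 for Ctgf and in 4 of 12 for Crim1.

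The gene with the most similar profile to each marker was found by Pearson's r over the 12 libraries among all genes tested, as a description. For Clic5 it was Sft2d3 (r = 0.959, Spearman's rho = 0.923), for Kitl E2f5 (r = 0.949, rho = 0.902) and for Prx Add2 (r = 0.927, rho = 0.916). For Tbx2 it was Stmn2, for Ednrb Sdcbp2, for Car4 Irx1, for Emp2 Mapt, for Chst1 Dna2 and for Fibin Nrcam, with r of 0.907, 0.902, 0.888, 0.883, 0.865 and 0.848 and rho of 0.832, 0.909, 0.876, 0.748, 0.846 and 0.861 in that order. The closest pair within the markers was Prx and Tbx2 (r = 0.883), and Clic5 was closest to Prx (r = 0.670). Each r is the highest of many, and the 12 points share their groups and batches.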

How the data were processed

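RNA of sorted lung endothelial cells was made into Lexogen QuantSeq libraries, per the labels' protocols. Bowtie2, the mm10 build and edgeR are named, without roles or versions, per the submitters' processing notes. The authors deposited log2 values, normalized between libraries: the highest was 20.665 in each, and the 5000 highest ranks differed by at most 0.168. Depth is unknown. Of 24421 genes, 27 that some tables list under date-like names and 34 displaced rows were left out. The 7 and 5 libraries without and with displaced rows were treated as batches.

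Groups came from the titles. limma 3.58.1 (R 4.3.3, statmod 1.5.0) was fitted to the values as deposited in all 12 libraries, with 1 mean for each group and a trended, robust variance prior and 9 residual degrees of freedom. Genes needed a CPM of at least 1, computed from values raised from the log2 scale, in at least 4 libraries. P-values were adjusted by Benjamini-Hochberg over 11780 genes and called under 0.05. The fit was also run on simulated data, drawn as independent normal values with 1 SD per gene. They held no batches or outlying libraries, so that run does not cover these features of the data. The markers and gene lists were chosen with earlier results of these data known. All 9 markers were named, with the called genes of each other list or its 2 highest means, and the closest gene to each marker. Alternatives changed the filter, the low end of the scale, the prior, the scaling, the batch, the replicate block, the groups fitted and single libraries.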

Additional observations from a re-analysis of the deposited data

Results flagged for a closer look

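Among 27 sets of 4 libraries (9 markers in 3 groups) 1 held a library far from the rest. Clic5 in L12-ECKO replicate 1 was at 9.598, against 8.806 to 8.919 in the other L12-ECKO libraries, a gap that took up 0.857 of the range of the group. Chance alone marks about 1 in 20 such sets. This library is the one L12-ECKO library without displaced rows and the one with high immune transcripts.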

How the results depend on the processing

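Limma called 56 genes in L12-ECKO versus WT, 1 in L12YT-ECKO versus WT and 8 in L12YT-ECKO versus L12-ECKO. The first count was 15 with the batch covariate, 21 with no filter, 7 without a trend in the prior variance and 37 with only the 2 groups fitted, and from 15 (without WT replicate 2) to 80 (without WT replicate 3) without 1 library. The second was 0 without the trend, with 698 genes at an unadjusted p under 0.05 by limma, and from 1 to 3 (without WT replicate 1). The third was 2 without the trend, 5 with only the 2 groups fitted, 14 within the 7 libraries and 0 within the 5, with 400 genes there at an unadjusted p under 0.05 by limma, and from 4 (without L12YT-ECKO replicate 2 or WT replicate 2) to 9 (without L12-ECKO replicate 4 or WT replicate 4). None of the 8 markers other than Clic5 was called under any of these alternatives. Clic5 was in the fit and the adjustment, and its p-value is not given.

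Single markers changed direction in a few fits. In L12-ECKO versus WT, Chst1 was -0.52 within the 7 libraries, and without 1 library Car4 ran from -0.68 to 0.12 and Emp2 from -0.40 to 0.24. In L12YT-ECKO versus WT, Kitl was 0.031 within the 7 libraries, Chst1 was -0.044 with the batch covariate, and without 1 library Fibin ran from -0.58 to 0.52 and Prx from -0.026 to 0.37. In L12YT-ECKO versus L12-ECKO, Chst1 was 0.74 within the 7 libraries and ran from -0.50 to 0.13 without 1 library. The cause was not tested. Libraries of equal number did not deviate together (r from -0.045 to 0.057). That gives no sign of pairing by number but cannot exclude it. With the replicate block the counts of calls were 44, 1 and 6. The depth is unknown, so no limit from counting could be set.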
